A study of Mus musculus with 18 samples.

Results

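The series holds 2 groups of untreated double negative T cells (DNT cells) that belong to separate sets, each with a count table of its own. The 6 libraries compared here, of 18 in all, are the 3 labelled WT, the untreated arm of the set that tested 400 µM ATPgs, as the labels write it, and the 3 labelled DNT, the untreated arm of the set that tested 400 µM adenosine. In spite of their names, both groups carry the same labels: wild type mice, spleen and lymph node, DNT cells converted from CD4+ T cells, anti-CD3/CD28 antibody, and no ligand during the 6 h of the experiment. The difference between them is therefore a difference between sets and not a treatment effect. Age, days in culture and purity were not stated. Whether the 3 libraries of a group had separate animals or cultures as their source is likewise unstated, and a p-value here sets the groups against library-to-library spread alone, which may be technical.

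Double negative T cells carry the T cell receptor but have neither the CD4 nor the CD8 coreceptor on their surface. They kill other lymphocytes through perforin and granzymes, secrete interferon gamma, and are studied as regulatory cells. Extracellular ATP and the adenosine made from it act on receptors that such T cells carry.

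Each library held between 21967706 and 23855783 counts over the 52506 genes listed in both tables, and 14877 genes passed the filter on low counts. Levels are CPM (a gene's counts scaled to a common library size, with TMM factors of 0.993 to 1.006). Differences are log2 values of DNT minus WT with their standard error (SE), so that 1 is a 2-fold higher level in DNT and a negative value is a higher level in WT. They were tested with edgeR's quasi-likelihood F test, two-sided, with Benjamini-Hochberg adjustment over all genes tested and a threshold of 0.05. Libraries of a group were very alike. Across genes, which are not independent replicates, the Spearman correlation of levels was 0.9963 to 0.9965 within WT, 0.9961 to 0.9962 within DNT, and 0.9605 to 0.9614 between the groups. Biological variation in edgeR's sense, as a common coefficient, came to 2.82% for WT and 2.45% for DNT, so that small differences passed the test.

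Both cultures strongly expressed genes of activated killer T cells. On a scale per kilobase of exon that allows genes to be compared (TPM, scaled to the same total in each library), Gzmb, the gene of the granule protease granzyme B, had the highest level in both groups, 31173 TPM in WT and 46355 TPM in DNT. Of the 100 genes with the highest TPM in each group, 87 were in both. Among the highest were the chemokine genes Ccl3 (14948 TPM in WT and 9547 TPM in DNT), Ccl4 (10090 TPM and 7270 TPM) and Xcl1 (5111 TPM and 5248 TPM), together with the granzyme genes Gzma (7059.5 TPM and 6401 TPM) and Gzmc (3955 TPM and 4038 TPM). The granzyme genes lie beside near copies of each other, so reads may be split between them. Spp1, which encodes osteopontin, had 3944 TPM and 3350.3 TPM. Interferon gamma (Ifng, 2546 TPM and 3571 TPM) and perforin (Prf1, 1517 TPM and 2164 TPM) stood among the strongly expressed genes too. Not all high genes were of the killer kind or alike in both cultures. Il17a, the gene of interleukin 17A, had 9153 TPM in WT and 847 TPM in DNT. Il13, a type 2 cytokine gene, had 1495 TPM and 366 TPM.

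T cell identity was clear in every library. Cd3e, a signalling chain of the receptor complex, had 135 CPM in WT (SD 3.7, n = 3) and 161 CPM in DNT (SD 4.64, n = 3), and of 30 genes of the receptor complex and its signalling 23 had a 95% interval of the difference that lay within 0.5 on the log2 scale. Per length, Cd3e stood at 106 TPM in WT and 123 TPM in DNT, whereas Cd4 stood at 7.24 TPM and 0.85 TPM, Cd8a at 10.1 TPM and 19.9 TPM and Cd8b1 at 4.48 TPM and 2.56 TPM. Cd4 had 8.22, 10.7 and 8.49 CPM in WT and 1.05, 1.38 and 0.883 CPM in DNT, with every WT library above every DNT library (8.25-fold, log2 difference -3.04, SE 0.17, edgeR adjusted p = 8.23e-20). Its counts were uneven between libraries, in a sense given further on. Cd8a was 2.03-fold higher in DNT (log2 difference 1.02, SE 0.07, edgeR adjusted p = 1.02e-15), and Cd8b1 was 1.69-fold higher in WT, on a mean of 47 counts per library in WT and 28 in DNT. Without the first WT library that call of Cd8b1 was lost (log2 difference -0.61, edgeR adjusted p = 0.0553). For these as for all genes here, fewer cells of a kind and less RNA per cell cannot be told apart in bulk libraries. Both sets gave RNA of the Y-linked gene Ddx3y (164 CPM in WT and 134 CPM in DNT), and Xist, the RNA of the inactive X chromosome, had between 0 and 4 counts in each library.

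**Figure D1:**
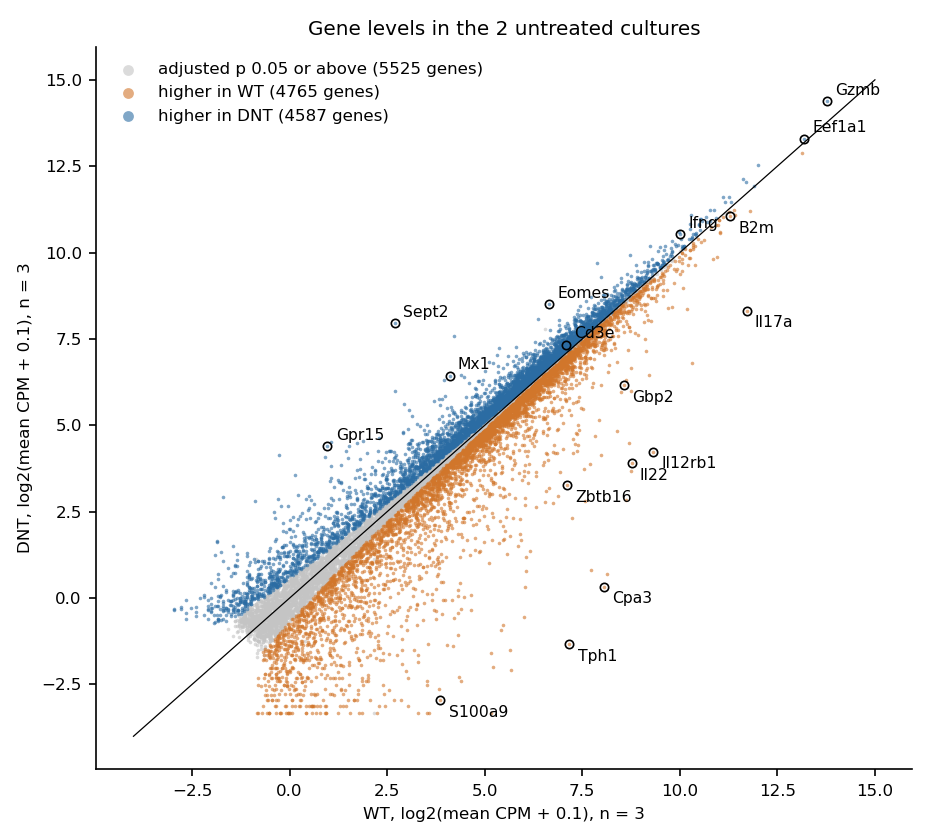
Mean level of each of 14877 genes in the WT libraries (x axis) and in the DNT libraries (y axis), as log2 of the mean CPM plus 0.1, with the line of equal levels. Most genes lie close to the line, and more genes stand far below it (higher in WT, as Cpa3 and Il17a) than far above it. Orange points were higher in WT, blue points higher in DNT and grey points did not pass the test, and the genes ringed in black carry their names.

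Around that common core the cultures differed at many genes. By edgeR 9352 genes passed the threshold (62.9% of those tested), 4587 of them higher in DNT (30.8%) and 4765 higher in WT (32.0%), and the libraries of the groups did not overlap at 9863 genes (66.3%). Most differences were small. The 95% interval lay within 0.5 on the log2 scale at 7300 genes (49.1%), and among the 8080 genes with at least 10 TPM in both groups the median size of the difference was 0.21. A difference of at least 2-fold passed the test at 2016 genes (13.6%), of which 633 were higher in DNT (4.25%) and 1383 higher in WT (9.30%). Of the 633, 310 were protein-coding genes and 242 were processed pseudogenes, intronless copies whose reads can be shared with their parent genes. Of the 1383, 1141 were protein-coding genes and 25 were processed pseudogenes. The median log2 difference over all genes was -0.004, and the counts for the gene groups that follow are to be read against these shares.

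**Figure D2:**
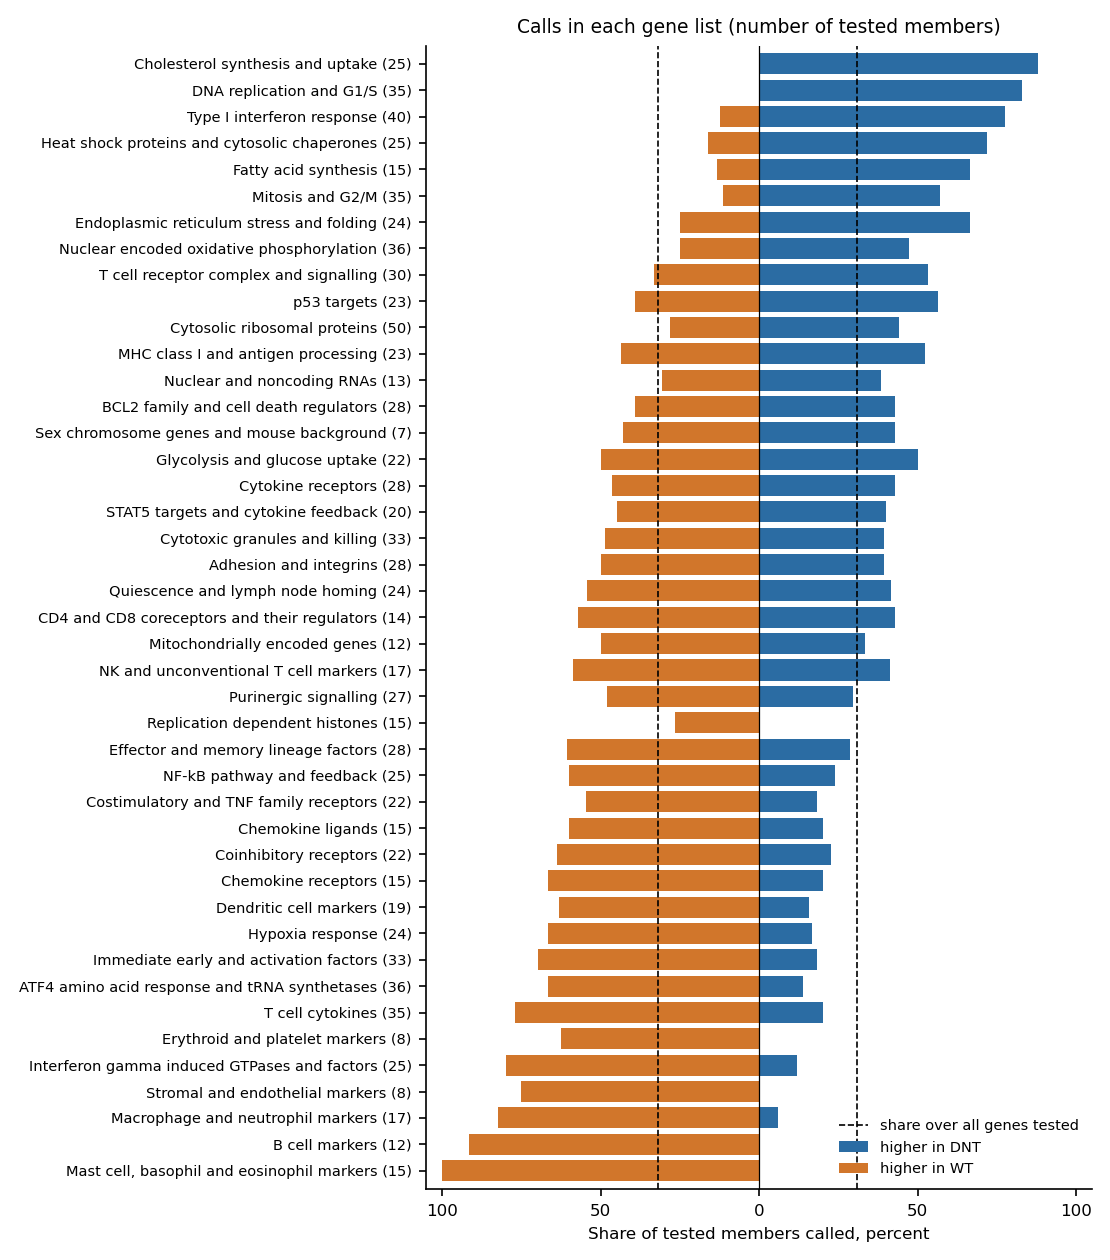
Share of the tested members of each of 43 gene lists that were higher in DNT (blue, to the right) or higher in WT (orange, to the left), in percent, with dashed lines at the shares over all genes, 30.8% and 32.0%. Lists of cholesterol synthesis, DNA replication and the type I interferon response lie toward the top, and markers of mast cells, B cells and myeloid cells toward the bottom.

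The differences of the greatest size included genes of mast cells, basophils and eosinophils, granulocytes that act in allergy and defence against worms. Of 16 listed markers 15 were tested, and all 15 were higher in WT, 14 of them at least 2-fold, with a median log2 difference of -6.75. Markers near 0 in DNT could pass the filter on low counts only through WT, so their direction was fixed beforehand. Cpa3, which encodes the carboxypeptidase of mast cell granules, had 272, 262 and 263 CPM in WT and 1.22, 1.19 and 1.06 CPM in DNT, a 228-fold difference (log2 difference -7.83, SE 0.06, edgeR adjusted p = 4.37e-52). Fcer1a, the alpha chain of the immunoglobulin E receptor, had 52.9, 51.6 and 48.2 CPM in WT and 0.0422, 0.229 and 0.132 CPM in DNT. The groups were far apart at both genes.

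Other genes of these cells went the same way. Gata2, a transcription factor of mast cells and basophils, had a mean of 63.9 CPM in WT and 0.579 CPM in DNT. Mcpt8, a basophil protease, had 71.5 CPM and 2.47 CPM, and Tph1, the serotonin-synthesizing enzyme of mast cells, had 144 CPM and 0.294 CPM. Prg2, the major basic protein of eosinophil granules, had 652 counts over the WT libraries and 0 over the DNT libraries, so that it was at least 219.7-fold higher in WT when 3 counts are set for the group at 0. Kit, the receptor for stem cell factor, differed least, with 80.8 CPM and 69.1 CPM (log2 difference -0.22). In the DNT libraries Mcpt1, Mcpt4, Prg2 and Tpsab1 were at 0.

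Summed over the 16 listed markers, the level was 658 to 674 CPM in the WT libraries and 75.8 to 76.8 CPM in the DNT libraries, where Kit alone made up most of the sum. The same sum was 404 to 1202 CPM in the libraries with ATPgs and 136 to 139 CPM in those with adenosine. Every library of the ATPgs table was thus above every library of the adenosine table.

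The upstream sequences of Cpa3 and Fcer1a are shown because both hold AGATAA, the core bound by GATA factors such as Gata2. Both are the markers with the smallest p among those considered that hold it. Some genes were left out of the choice beforehand by their place in the genome. The sequences run 5′ to 3′ on the gene's strand up to the base before the RefSeq start. They are in lower case, with each match to AGATAA or its reverse complement in capitals. Cpa3 is shown at chr3:20242182-20242331 (minus strand) and Fcer1a at chr1:173227230-173227379 (minus strand) of GRCm38.p6.
Cpa3: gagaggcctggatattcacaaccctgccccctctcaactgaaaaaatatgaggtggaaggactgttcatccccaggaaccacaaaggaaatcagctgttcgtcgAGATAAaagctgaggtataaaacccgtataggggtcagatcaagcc
Fcer1a: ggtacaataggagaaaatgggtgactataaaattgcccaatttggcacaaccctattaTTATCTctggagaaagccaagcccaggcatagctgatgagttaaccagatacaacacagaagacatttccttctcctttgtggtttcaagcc
Within 250 bases before the start, AGATAA on either strand was in 4 of the 12 tested markers that have a promoter sequence (33.3%) and in 3090 of all 27025 genes with one (11.4%). AGATAA was also in 6 of 16 members of a list of interferon gamma targets described further on (37.5%). In a list of the type I interferon response it was in 4 of 28 (14.3%), and in one of cholesterol synthesis in 0 of 17. The share among the mast cell, basophil and eosinophil markers was thus not particular to them. These are matches of letters only.

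Tested markers of other blood cells were also mostly higher in WT. Listed were 18 B cell, 27 macrophage and neutrophil, and 15 red cell and platelet markers, and not all could be tested. Those near 0 in DNT could pass the filter on low counts only through WT, so their direction was fixed beforehand. Among tested B cell markers 11 of 12 were higher in WT and 0 in DNT. Among macrophage and neutrophil markers 14 of 17 were higher in WT and 1 in DNT (Cd68). Among red cell and platelet markers 5 of 8 were higher in WT and 0 in DNT. S100a9, a calcium-binding protein of neutrophils, had 973 counts over the WT libraries and 2 over the DNT libraries, a ratio of 492 (95% counting interval 136 to 4066). Ms4a1, which encodes CD20 of B cells, had 89 counts and 1 count. The levels themselves were low. Summed over a list they reached 162 to 167 CPM in WT and 109.6 to 111 CPM in DNT for macrophages and neutrophils, 79.5 to 81.4 CPM and 46.9 to 51.6 CPM for B cells, and 36.5 to 38.6 CPM and 7.04 to 7.43 CPM for red cells and platelets. Among those at 0 in every DNT library were Iglc2 and Pax5 among B cell markers, C1qa, C1qb, Cd163, Csf3r, Elane, Lyz1 and Mrc1 among macrophage and neutrophil markers, and Hba-a2 and Hbb-bs among red cell and platelet markers. Of these, Hba-a2 was at 0 in every WT library too.

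Of 19 tested dendritic cell markers 12 were higher in WT and 3 in DNT, and the sum, 1360 to 1407 CPM in WT and 1839 to 1849 CPM in DNT, was mostly Irf8, a factor that activated T cells make too (1010.4 CPM and 1536 CPM). The MHC class II genes H2-Aa (9.94 CPM and 1.47 CPM) and H2-Eb1 (8.96 CPM and 1.83 CPM) were higher in WT. Of 22 connective tissue, vessel and epithelial markers listed, 8 were tested. Of these, 6 were higher in WT, with Vim and Pecam1, which T cells also transcribe, among them, and 0 in DNT. The limit of the filter given above holds for these lists too. What these other cells contributed to the differences described next was not tested.

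**Figure D3:**
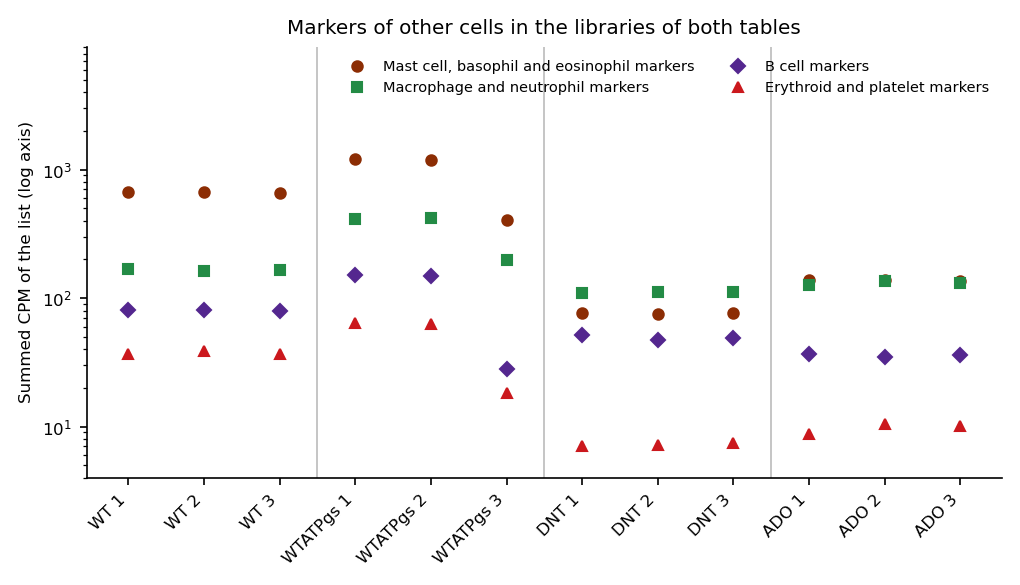
Summed level of 4 lists of markers of other cells, in CPM on a log axis, for each of the 12 libraries of the count tables that hold WT and DNT. Mast cell, basophil and eosinophil markers stand at 658 to 674 CPM in WT and at 75.8 to 76.8 CPM in DNT, and the third ATPgs library lies below the other 2 of its group.

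Il17a, which encodes the cytokine interleukin 17A, was among the T cell cytokine genes higher in WT. It had 3380.2, 3341 and 3329 CPM in WT and 309, 324 and 324 CPM in DNT, a 10.5-fold difference (log2 difference -3.39, SE 0.02, edgeR adjusted p = 7.57e-58). Zbtb16, the gene of PLZF, a factor of innate-like T cells, had 135, 136 and 140.4 CPM in WT and 9.27, 9.82 and 9.62 CPM in DNT. At both genes every WT library was above every DNT library.

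Some genes known from T cells that make interleukin 17 were looked at after their values were seen, and no list was counted for them. All of those given here were higher in WT. Il17f (162 CPM in WT and 27.2 CPM in DNT) and Il22 (435 CPM and 14.9 CPM) encode sister cytokines, Il23r (41.6 CPM and 4.59 CPM) and Il1r1 (95.7 CPM and 8.46 CPM) receptors that drive them, and Maf (90.6 CPM and 14.4 CPM) a factor of the same cells. Il22 and Il23r are among the genes of uneven counts. The chemokine gene Ccl20, whose receptor marks such cells, was higher in WT too (19.9 CPM and 0.946 CPM). Counts of receptor genes follow, without a test. Trdc, the constant segment of the delta chain, had 633, 657 and 694 counts in WT and 58, 54 and 56 in DNT, while Trac, that of the alpha chain, had 3917 to 4170 counts and 4249 to 4606 counts. Trdv4 had 48, 42 and 57 counts in WT and 0, 5 and 0 in DNT. Trav1, the alpha segment of mucosal-associated invariant T cells, looked up after other values were seen, had 177, 149 and 202 counts in WT and 36, 19 and 28 in DNT. The segments of invariant NKT cells were near 0 in both groups, with 1, 0 and 4 counts of Trav11 in WT and 0, 0 and 0 in DNT, and 0, 1 and 3 counts of Trav11d in WT and 1, 0 and 4 in DNT.

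Not all genes of innate lymphocytes were higher in WT. Of 17 tested markers of NK and unconventional T cells 10 were higher in WT and 7 in DNT. The latter included Eomes and the Ly49 receptor genes Klra1 (24.5 CPM in WT and 48.1 CPM in DNT) and Klra7 (70.8 CPM and 98.6 CPM), near copies of each other. Ncr1, the NK cell receptor NKp46, was low in both groups (0.77 CPM and 0.146 CPM).

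**Figure D4:**
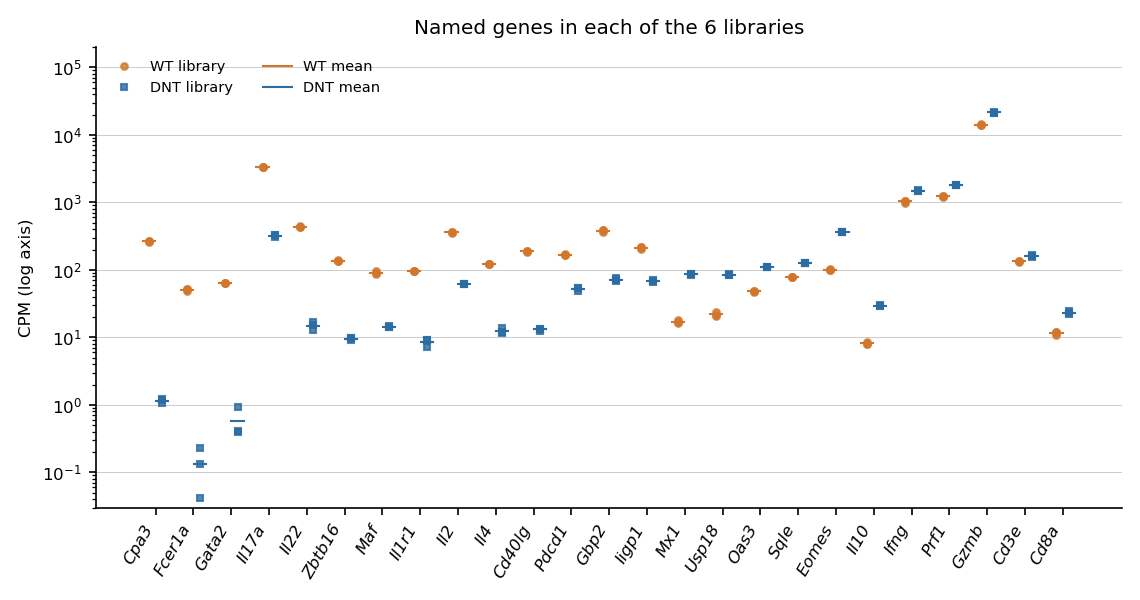
Level of 25 genes in each of the 3 WT libraries (orange circles) and 3 DNT libraries (blue squares), in CPM on a log axis, with short lines at the means. The libraries of a group lie close together at most genes, and the groups do not overlap at any gene shown.

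T cell cytokine genes as a group leaned to WT. Of 35 tested, 27 were higher in WT, 17 of them at least 2-fold, and 7 were higher in DNT, with a median log2 difference of -0.82. Il2, the T cell growth factor, had 367, 362 and 351 CPM in WT and 61.2, 62.1 and 62.1 CPM in DNT, a 5.83-fold difference (log2 difference -2.54, SE 0.03, edgeR adjusted p = 6.87e-46). Cd40lg, the ligand by which helper T cells act on B cells, had 184, 187 and 191 CPM in WT and 13.4, 12.5 and 13.5 CPM in DNT, again without overlap. The type 2 cytokine genes followed, with Il13 3.96-fold, Il4 9.83-fold and Il5 6.13-fold higher in WT, and Il3 was 8.33-fold higher. Mast cells and basophils transcribe Il4, Il13, Il3 and Il6 as well, and their part in these differences was not tested.

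The cytokine genes that were higher in DNT are few. Il10, an inhibitory cytokine, had 7.91, 8.5 and 8.05 CPM in WT and 30.1, 28.8 and 29.2 CPM in DNT (3.6-fold, log2 difference 1.85, SE 0.07, edgeR adjusted p = 1.36e-24). Ifng was 1.44-fold higher, with 1030.5 CPM in WT (SD 34.7, n = 3) and 1489 CPM in DNT (SD 23, n = 3). Il24, Csf2, Lif, Tnfsf4 and Il16 were the other members higher in DNT.

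Chemokines and their receptors leaned to WT as well. Of 15 tested chemokine ligand genes 9 were higher in WT and 3 in DNT, and of 15 receptor genes 10 and 3. Cxcl3, a neutrophil attractant, was 7.29-fold higher in WT and Ccl3 1.52-fold higher, whereas Ccl5 (82.6 CPM and 80.9 CPM) did not pass the test. Ccr1 (60.1 CPM in WT and 3.55 CPM in DNT), Cxcr6 (284 CPM and 92.4 CPM) and Ccr2 (162 CPM and 72.3 CPM) were among the receptors higher in WT. Ccr7, which leads T cells into lymph nodes, went the other way (9.53 CPM and 22 CPM). Ly6c2, a surface protein of memory T cells and not a chemokine gene, did so too (120.1 CPM and 264 CPM). It belongs to a list of quiescence and lymph node homing. Of 24 tested genes of that list 13 were higher in WT and 10 in DNT, with a median log2 difference of -0.08.

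Receptors that bring signals into the T cell include inhibitory ones, which restrain the cell, and those for cytokines. Of 22 tested coinhibitory genes 14 were higher in WT and 5 in DNT. Pdcd1, which encodes PD-1, had 172, 167 and 166 CPM in WT and 53.8, 49.1 and 53.5 CPM in DNT (3.22-fold). Cd160 had 406 CPM and 146 CPM. Cd200, counted among the 14 though it encodes a ligand and not a receptor, had 41.2 CPM and 9.22 CPM. Ikzf2, the gene of Helios, a factor of regulatory T cells and not a receptor, is counted among those 5 and was 1.96-fold higher in DNT. Among 28 tested cytokine receptor genes 13 were higher in WT and 12 in DNT, with a median log2 difference of -0.02, a nearly even split. The former included Il1r2 (13.9-fold), Il1r1 (11.3-fold), Il1rl1, which encodes the interleukin 33 receptor (6.46-fold), and Il7r (5.22-fold). The latter included Il12rb2 (119 CPM in WT and 214 CPM in DNT), Il10ra (62 CPM and 117 CPM) and Il2rb (1466 CPM and 2007 CPM).

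Genes induced by the T cell receptor were mostly higher in WT. Of 33 immediate early and activation genes 23 were higher in WT and 6 in DNT, with a median log2 difference of -0.41. Nr4a1, a nuclear receptor that reports receptor signals, had 832, 837 and 827 CPM in WT and 337, 331 and 342 CPM in DNT, and Rgs1 and Spry1 were 2.37-fold and 5.15-fold higher in WT. Myc (402 CPM and 667 CPM) and Junb (636 CPM and 741 CPM) went the other way, and Egr1 (409 CPM and 399.6 CPM) did not pass the test. Within the receptor pathway, Prkcq, a kinase below the receptor (40.2 CPM and 93 CPM), and Ubash3a, which damps it (7.45 CPM and 28 CPM), were higher in DNT, while Plcg1 (83.3 CPM and 38.8 CPM) was higher in WT.

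Interferon-induced genes parted into a pair of groups with opposite directions. Of 40 genes of the type I interferon response, an antiviral program, 31 were higher in DNT and 5 in WT, with a median log2 difference of 0.51. Of 25 GTPases and factors best known as targets of interferon gamma, 20 were higher in WT and 3 in DNT, with a median of -0.58. Mx1, an antiviral GTPase, had 17.9, 16.4 and 16.9 CPM in WT and 84.4, 87.2 and 87.6 CPM in DNT, a 5.06-fold difference (log2 difference 2.34, SE 0.05, edgeR adjusted p = 1.49e-35). Gbp2, a guanylate-binding protein, had 361, 390 and 386 CPM in WT and 69.6, 68.9 and 75.9 CPM in DNT, a 5.3-fold difference (log2 difference -2.41, SE 0.04, edgeR adjusted p = 2.45e-22). The groups did not overlap at either gene, and their order was opposite.

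Upstream sequences of 3 members of each list are shown because the same short motif is found in both. They are the members with the smallest p among those considered whose 250 bases before the RefSeq start hold GAAANNGAA on either strand. GAAANNGAA is the core of the element bound by interferon regulatory factors. Here too some genes were left out beforehand by their place in the genome, so members with a smaller p may be missing. The sequences are printed like those above, with matches in capitals, and overlapping matches run together. Those of the type I list are Oas3 at chr5:120777660-120777809 (minus strand) and Trim30a at chr7:104465194-104465343 (minus strand), both higher in DNT, and Ifih1 at chr2:62646256-62646405 (minus strand), higher in WT.
Oas3: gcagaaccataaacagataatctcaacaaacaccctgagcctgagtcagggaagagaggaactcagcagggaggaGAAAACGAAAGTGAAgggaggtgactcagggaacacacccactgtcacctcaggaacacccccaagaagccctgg
Trim30a: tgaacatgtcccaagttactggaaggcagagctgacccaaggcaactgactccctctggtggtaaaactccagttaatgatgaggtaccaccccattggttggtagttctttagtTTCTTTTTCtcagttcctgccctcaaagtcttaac
Ifih1: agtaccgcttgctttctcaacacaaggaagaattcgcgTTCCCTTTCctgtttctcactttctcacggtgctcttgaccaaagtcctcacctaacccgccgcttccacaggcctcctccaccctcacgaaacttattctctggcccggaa
Those of the interferon gamma list, all higher in WT, are Tgtp2 at chr11:49064213-49064362 (minus strand), Cd274, which encodes PD-L1, at chr19:29367288-29367437 (plus strand) and Gbp2 at chr3:142620513-142620662 (plus strand). Coordinates are of GRCm38.p6.
Tgtp2: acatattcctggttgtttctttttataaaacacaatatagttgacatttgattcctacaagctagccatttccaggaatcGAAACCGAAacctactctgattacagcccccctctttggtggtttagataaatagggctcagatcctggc
Cd274: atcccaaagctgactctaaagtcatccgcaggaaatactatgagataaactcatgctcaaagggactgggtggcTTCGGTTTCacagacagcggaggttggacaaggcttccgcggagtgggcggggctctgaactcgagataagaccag
Gbp2: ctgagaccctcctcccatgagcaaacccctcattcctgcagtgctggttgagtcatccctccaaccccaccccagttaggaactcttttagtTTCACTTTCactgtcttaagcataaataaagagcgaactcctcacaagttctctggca
GAAANNGAA was in 16 of the 28 members of the type I list that have a promoter sequence (57.1%), in 13 of 16 of the interferon gamma list (81.2%) and in 2211 of all 27025 genes (8.18%). TTCNNNGAA, the core bound by STAT factors and its own reverse complement, was in 4 of 28 (14.3%), in 8 of 16 (50%) and in 2197 of 27025 (8.13%). The lists were drawn up from known interferon targets, so these shares describe the lists and not the difference between the cultures.

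Usp18, a feedback inhibitor of the interferon receptor (22 CPM in WT and 84 CPM in DNT), Oas3, a sensor enzyme (47.8 CPM and 109 CPM), Trim30a (121 CPM and 223 CPM) and Isg15, a ubiquitin-like modifier (26.9 CPM and 57.5 CPM), went with Mx1. Iigp1 (213 CPM and 68.3 CPM) and Tgtp2 (69.2 CPM and 29.9 CPM), immunity-related GTPases, Gbp5 (68.5 CPM and 38.4 CPM) and Cd274 (219 CPM and 146 CPM) went with Gbp2. Each list had exceptions. Ifih1, the RNA sensor MDA5, was 2.26-fold higher in WT within the first list, and Irf8 (1.52-fold), Cxcl10 (1.62-fold) and Gbp9 (1.26-fold) were higher in DNT within the other. Many genes of both lists respond to either interferon, and macrophages and dendritic cells express them as well.

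**Figure D5:**
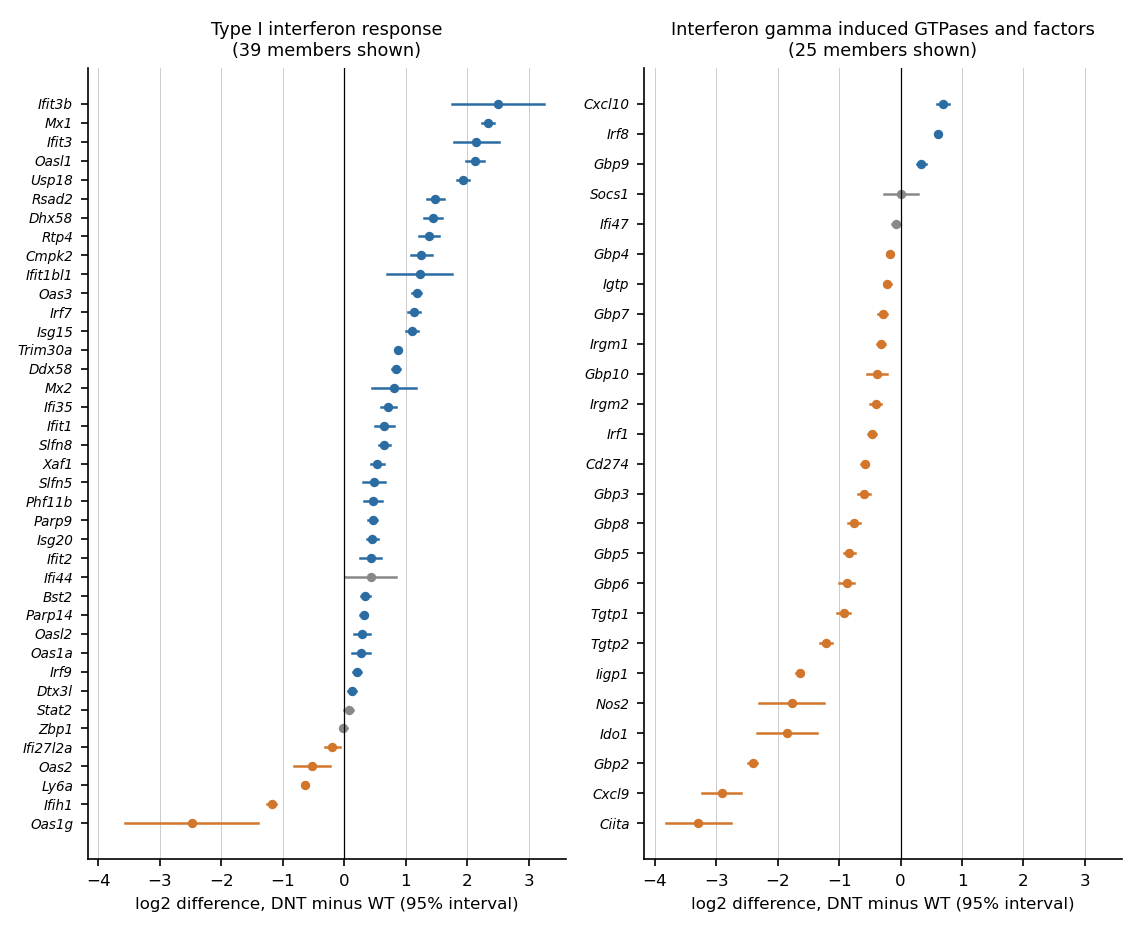
Log2 difference, DNT minus WT, with its 95% interval for tested members of the type I interferon list (left, all but 1 of 40 genes) and of the interferon gamma list (right, 25 genes), blue where higher in DNT, orange where higher in WT and grey where the test was not passed. Most points of the left panel lie to the right of 0 and most of the right panel to its left.

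The killing machinery was strongly expressed in both cultures. Of 33 genes of cytotoxic granules and killing 13 were higher in DNT and 16 in WT, and the interval lay within 0.5 on the log2 scale for 19. Gzmb had 14284, 13909 and 13781 CPM in WT and 21238, 21828 and 21241 CPM in DNT (1.53-fold, log2 difference 0.61, SE 0.01, edgeR adjusted p = 2.59e-30). Prf1, the pore-forming perforin, was 1.47-fold higher in DNT, with 1226 CPM in WT (SD 8.31, n = 3) and 1801 CPM in DNT (SD 10.1, n = 3). The other direction was led in size by Ctsl, a lysosomal protease (6.2-fold), and included Srgn, the proteoglycan that packs granules in killer and mast cells (2.1-fold). Gzma and Gzmc differed by -0.10 and 0.07, and Gzmc and Xcl1 changed sign when differences were adjusted for gene length and GC content.

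Factors that set effector fates leaned to WT, with 17 of 28 tested higher there and 8 higher in DNT. Eomes, a factor of memory and killer T cells, had 98.1, 102 and 99.3 CPM in WT and 363, 368 and 361 CPM in DNT (3.65-fold, log2 difference 1.87, SE 0.03, edgeR adjusted p = 2.11e-42), whereas its relative Tbx21 was lower in DNT (131 CPM and 98.6 CPM). Gata3 and Runx1 were 2.12-fold and 2.58-fold higher in WT. Runx3 and Satb1, which act on the CD4 and CD8 coreceptor genes, were 1.5-fold and 1.42-fold higher in DNT.

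Lipid synthesis and growth genes were higher in DNT, mostly by small steps. Of 25 genes of cholesterol synthesis and uptake 22 were higher in DNT and 0 in WT, with a median log2 difference of 0.49. Sqle, which oxidizes squalene, had 78.3, 78.6 and 78.6 CPM in WT and 127, 126 and 126 CPM in DNT (1.61-fold), and Insig1, a sterol sensor of the pathway, was 1.64-fold higher. Of 15 fatty acid synthesis genes 10 were higher in DNT and 2 in WT, among the former Scd2 (1.99-fold) and Fasn, fatty acid synthase (1.56-fold). CCAATCAG, a CCAAT box, was sought on either strand within 250 bases before the start. It was in the promoters of 6 of 17 cholesterol genes (35.3%) and of 1198 of 27025 genes (4.43%). In the interferon gamma list it was in 3 of 16 (18.75%), and in the type I list in 0 of 28. Like the shares above, these describe the lists and not the difference between the cultures.

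Of 35 genes of DNA replication 29 were higher in DNT and 0 in WT, with a median of 0.25. Among them were Pold1, a DNA polymerase subunit (57.4 CPM in WT and 87.1 CPM in DNT), Ccne1, a cyclin of entry into S phase (24.8 CPM and 44.3 CPM), and Mcm7 of the replicative helicase (69.2 CPM and 96.6 CPM). Of 35 mitosis genes 20 were higher in DNT and 4 in WT, with Plk1 1.76-fold and Aurkb 1.7-fold higher in DNT. The only member with a call of at least 2-fold was Nek2, 2.87-fold higher in WT on uneven counts. The proliferation marker Mki67 did not pass the test (229 CPM and 226 CPM). Cytosolic chaperones (18 of 25 higher in DNT and 4 in WT, Hspa8 1.4-fold) and folding factors of the endoplasmic reticulum (16 of 24 and 6, Hspa5 1.42-fold) leaned to DNT as well. Among their members higher in WT were Hspa4l (2.56-fold) and Ern1 (1.69-fold). The 95% interval of the log2 difference lay within 0.5 for 47 of 50 ribosomal protein genes, 33 of 36 genes of oxidative phosphorylation and 21 of 23 genes of MHC class I and antigen processing. It did so for only 6 of 12 mitochondrially encoded genes, of which 4 were higher in DNT, among them mt-Nd6, which overlaps mt-Nd5 on the other strand (156 CPM and 281 CPM), and 6 in WT, among them mt-Co1 (8907 CPM and 7612 CPM).

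Genes of low oxygen and of amino acid shortage leaned to WT. Of 24 hypoxia genes 16 were higher in WT and 4 in DNT, with Ndrg1 4.18-fold, Egln3 2.67-fold, Ero1l 2.19-fold and Hif1a, the oxygen-controlled factor, 1.73-fold higher in WT. Of 36 ATF4 targets and tRNA synthetase genes 24 were higher in WT and 5 in DNT, and 29 had an interval within 0.5. Glycolysis genes were even, 11 and 11, although Pfkp (1.69-fold) and the glucose carrier Slc2a3 (1.82-fold) were higher in WT. Neat1, a nuclear noncoding RNA, had 601, 588 and 599.7 CPM in WT and 85.1, 93.7 and 84.8 CPM in DNT.

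The study is about extracellular ATP and adenosine, and genes for these signals differed between the untreated cultures too. Of 27 tested 13 were higher in WT and 8 in DNT. Entpd1, which encodes CD39, the enzyme that breaks down extracellular ATP, had 59.7, 60.3 and 57.8 CPM in WT and 78.3, 75.1 and 74.7 CPM in DNT (1.28-fold, log2 difference 0.36, SE 0.04, edgeR adjusted p = 3.06e-11). Nt5e, which encodes CD73, the next enzyme toward adenosine, was 1.55-fold higher in WT, with 60.3 CPM in WT (SD 1.77, n = 3) and 39 CPM in DNT (SD 0.992, n = 3). The order of the cultures was thus opposite for these neighbouring steps. Adora2a, the A2a adenosine receptor, had 142 CPM and 156 CPM, a log2 difference of 0.14, and Adora2b had 64.4 CPM and 41 CPM. Among receptors for ATP and its products, P2rx7 (41 CPM and 15.4 CPM), P2rx4 (27.7 CPM and 8.73 CPM) and P2ry1 (7.19 CPM and 0.475 CPM) were higher in WT, and P2ry14, a receptor for UDP sugars, was 1.94-fold higher in DNT. P2ry1 had uneven counts.

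The receptor repertoire was broad in both cultures. Counts over 35 Trbv genes, the V segments of the beta chain, came to 2882 to 3688 per library. The 5 with the highest shares in WT together took 51.2% there, and the 5 with the highest shares in DNT 51% there, and the highest share of a segment in a library was 15%. Trbv12-2 led with 13.4% (SD 0.406, n = 3) in WT and 14.4% (SD 0.562, n = 3) in DNT. Trbv13-2 took 9.73% and 5.91%, and Trbv3 5.23% and 8.99%, with no overlap between the groups. These are shares of counts per gene, not tested, and near-identical segments may exchange reads.

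How the reads were counted touches some of these values. The tables list different gene sets, with 44 genes in the table of WT alone and 959 in that of DNT alone. A gene was taken as having uneven counts where its spread between libraries, beyond counting error, was over 10% of the group's mean. Only groups with a mean of at least 100 counts were used, and 863 genes had uneven counts. Of these 15.8% were at least 2-fold higher in WT and 7.3% in DNT, against 5.6% and 2.01% of the 9589 other genes of that depth. Il12rb1, which encodes a chain of the interleukin 12 and 23 receptors, is a clear case, with 14113, 14193 and 14843 counts in WT and 413, 496 and 368 in DNT. Ctla4, Icos and Cd28, which neighbour each other on chromosome 1, were uneven in DNT and 8.79-fold, 3.85-fold and 3-fold higher in WT. Of the 946 distinct list members tested, 368 were higher in DNT and 427 in WT, and without the uneven genes these counts were 365 and 403. The rule keeps genes whose counts were low alike in every DNT library, such as Jund (log2 difference -3.03). How far the lists depend on the counting was thus not tested.

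Whether counting used strand was not stated, and many of the named genes overlap genes on the opposite strand. Among them are Maf, Eomes, Usp18, Cd160, Cd3e, Gata3, Hif1a, Ndrg1, Pfkp, Plcg1, P2ry1 and Cd274. Reads of such partners cannot be told apart. The same holds for Gpr15, a homing receptor of T cells (1.85 CPM and 20.8 CPM) and one of the 12 largest differences toward DNT. The other 11 were Sept2 (6.41 CPM and 249.8 CPM), Nnt (0.73 CPM and 17.5 CPM) and 9 copies of ribosomal protein and ferritin genes, such as Rps3a2 (6.36 CPM and 63.3 CPM), whose reads can be shared with their parents. Nnt overlaps a further entry of its own name on the same strand, so its reads can be shared as well. Sept2 had uneven counts in WT (121, 131 and 182). Among protein-coding genes, chosen after their values were seen, Kcnk10 (2 CPM and 11 CPM), Tmem171 (1.36 CPM and 7.12 CPM) and Dgkh (15.6 CPM and 79 CPM) also stood high in DNT.

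The ligand effects give the set difference a scale. In the principal components of log2 CPM over the 12 libraries of both tables, the first held 66.4% of the variance and parted the tables, and the next held 14.6% and parted treated from untreated libraries in both. ATPgs against WT called 5613 genes (37.1%), 833 of them at least 2-fold (5.51%), and adenosine against DNT called 7275 (50.3%), 604 at least 2-fold (4.17%), against 2016 at least 2-fold between the untreated groups. The third ATPgs library stood apart from the other 2, and without it 8387 genes were called, 1336 of them at least 2-fold. These comparisons share the untreated libraries, and the differences in their counts were not tested. Culture, library preparation, sequencing and counting may each have differed between the sets and cannot be told apart.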

How the data were processed

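RNA of 18 libraries was sequenced, and the 6 untreated libraries of the WT and DNT groups were compared here. The authors deposited tables of whole-number counts per Ensembl gene, 1 table per set. Reads were aligned with HISAT2 2.1.0 to GRCm38, per the submitters' processing notes. For the counting tool, the annotation release and strandedness, nothing is given in the sources used here. The 52506 genes in both tables were joined by ID, and GENCODE M21 gave symbols and exon lengths for 99.8%. Libraries held 21967706 to 23855783 counts, and replicates differed by more than counting error (chi-square per degree of freedom 1.87 to 2.36).

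Tests on these counts used edgeR 4.0.16 under R 4.3.3 (TMM, filterByExpr by group, robust glmQLFit), with the scripts first tested on simulated data. The SE is the log2 difference divided by the square root of F. Alternatives used DESeq2 1.42.0, limma 3.58.1, other filters and scalings, a replicate block and leaving out each library. The members, the 43 gene lists and the tests were chosen with earlier results of these data known. Named genes were the 12 largest differences in each direction (adjusted p under 0.05, at least 5 CPM in a group, no overlap between groups, no model names or receptor segments), the 4 members of each list with the smallest p, the 25 genes highest per kilobase, 5 Trbv genes and a fixed panel. Other list members were named as examples after their values were seen. Intervals are 95%, and those on counts cover counting error only. Promoter sequences came from RefSeq (GRCm38.p6). The table of the third set was not used here, and a few genes are not reported here.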

Additional observations from a re-analysis of the deposited data

How the results depend on the processing

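WT and DNT libraries share replicate numbers, but the labels give these no meaning and deviations correlated by only -0.03 to 0.02 over all pairs, so the numbers were not taken to pair the libraries. With a replicate block 4568 genes were higher in DNT and 4720 in WT, and 9240 of the 9352 calls were kept. Testing against a log2 difference of 0.5, which asks for a larger difference, left 1022 genes higher in DNT and 1747 in WT, and 91 and 219 members of the lists. With protein-coding genes only, chosen after seeing the data, 317 genes were at least 2-fold higher in DNT. The first principal component held 88.8% of the variance over the 500 most variable genes. Leaving out each library in turn gave 4331 to 4464 genes higher in DNT and 4506 to 4640 in WT, 663 to 707 and 1411 to 1507 at least 2-fold, 7027 to 7079 within 0.5, 352 to 367 and 417 to 425 list members, and a Trbv12-2 share of 13.15 to 13.56% in WT and 14.18 to 14.74% in DNT. An offset for gene length and GC content reversed Xcl1 (-0.09), Rps15 (-0.22) and Gzmc (-0.09), and the cause was not tested. Over all genes, that offset kept 8399 of the 9352 calls, lost 927, reversed 26 and gained 923. DESeq2 kept 8297 calls and lost 1055, and a single fit of 12 libraries kept 8068 and lost 1284. Of the values of 206 named genes under the alternatives, 3961 kept direction and side of the threshold, 97 no longer passed it, 4 newly passed it and 3 reversed. Counting depth limits genes below about 1 CPM, such as most markers of other cells in DNT.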

Other observations

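Several neighbouring genes lost most of their counts together in DNT. On chromosome 19, between 6276725 and 6378030 of GRCm38, Ehd1, a regulator of endosomes, had 8716, 8744 and 9092 counts in WT and 50, 164 and 264 in DNT, and Sf1, a splicing factor, had 9347, 9658 and 9970 counts in WT and 236, 368 and 262 in DNT. Men1 and Map4k2, which lie between them, were lower in DNT too (-1.84 and -2.65 on the log2 scale), and Cdc42bpg differed less (-0.60). The libraries with adenosine, of the same table, held at most 153 counts of Ehd1, and those with ATPgs 9524, 9504 and 9818. On chromosome 8, Mast3 (3699, 3783 and 3834 counts in WT and 687, 420 and 353 in DNT) and Jund (1064, 1026 and 1139 counts in WT and 136, 129 and 135 in DNT) lie near Il12rb1. On chromosome 16, Ranbp1 had 3436, 3287 and 3429 counts in WT and 128, 139 and 67 in DNT, and its neighbour Trmt2a 1773, 1698 and 1942 counts in WT and 327, 194 and 269 in DNT. Hnrnpu and Srsf1, RNA-binding proteins of every cell, had 28178, 28605 and 29605 counts in WT and 2925, 2252 and 2434 in DNT, and 9117, 9337 and 9508 counts in WT and 426, 585 and 510 in DNT. These genes were chosen after their values were seen.

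Processed pseudogenes, intronless copies of genes, leaned to DNT. Of 755 tested, 408 were higher in DNT and 59 in WT, with a median log2 difference of 0.53, against 3965 and 4240 of 12255 protein-coding genes. The third ATPgs library, which stood apart from the other 2, had 3226 counts of Trdc where they had 612 and 606, and 650 of Trdv4 where they had 133 and 159.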
